A study of Rattus norvegicus with 32 samples.

Results

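Genes whose RNA level varied most across the oral dose groups of bisphenol A (BPA) in the rat uterus were examined. The 10 genes were Ubqln2, Alg6, Svbp, Faim, Rcn2, Prpsap2, Tmed7, Mpc2, Tmem65 and Sumo2, out of 17327 genes in the count table and 13312 genes tested. They occupied places 2 to 11 when all tested genes were ordered by an F statistic for any difference among the vehicle group and the 5 BPA groups, so their differences among these groups chose them and are given as a description, without a test. Place 1 (F = 34.2) was held by gene 690300, which has no symbol in the gene table used. Ubqln2 had F = 29.1, and the last gene inside was Sumo2 with F = 19.1. The next genes, Yaf2, Crebzf and Ppp1r37, had F = 19, 18.8 and 18.7, so no step separated the set from the genes that followed. Of the same 10 genes, 9 were among places 2 to 10 when the vehicle group was left out of the F statistic, and Tmem65 was at place 13.

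Uterine RNA came from Sprague-Dawley rats (Sprague-Dawley/CD23/NctrBR) bred at NCTR, taken at the experiment's end at PND365 (postnatal day, counted from birth), in 32 libraries of 8 groups with 4 libraries each. BPA, a plastics monomer with weak estrogenic activity, was gavaged daily in doses of 2.5, 25, 250, 2500 and 25000 µg/kg. Ethinyl estradiol (EE2), an estrogen that acts when swallowed, had daily doses of 0.05 and 0.5 µg/kg, and the control group received the vehicle, carboxymethylcellulose at 0.3%. In all 8 groups, EE2 and vehicle included, dosing is listed from gestation day 6 for the dams and from day 1 after birth for the pups. For BPA the dams were dosed until labour began, and their pups until the end. Each group is called by its agent and dose (BPA 250, EE2 0.5), and libraries are numbered 1 to 4 within a group. Levels are CPM, counts scaled to a common library total after TMM normalisation. The labels name no animal, litter, batch or stage of the cycle, so all spreads and p-values describe the variation between these libraries. A library is a sample of mixed uterine tissue, in which fewer cells of a type and less RNA per cell cannot be told apart. BPA 2.5 libraries 1 and 3, BPA 250 library 1 and BPA 25000 library 3 stood apart, with the 4 lowest median correlations with the other libraries over all tested genes (0.892 to 0.926), and results are also given without them.

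The genes fall into housekeeping systems that act in nearly every cell. Alg6, Rcn2 and Tmed7 belong to the endoplasmic reticulum (ER) and the early secretory pathway, where proteins are glycosylated, folded and packed for export. Ubqln2 and Sumo2 act on proteins through ubiquitin or a ubiquitin-like tag, Mpc2 and Tmem65 lie in the inner membrane of mitochondria, Prpsap2 regulates the supply of activated ribose for nucleotides, Svbp supports an enzyme that trims tubulin, and Faim opposes cell death from the Fas receptor. None of them belongs to the classical estrogen-responsive genes of the uterus, such as those of lactoferrin or complement C3.

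The stretches before the start sites of Alg6, Rcn2, Sumo2 and Faim are shown as examples. These genes lay high or low in the same libraries, as did the other genes. The stretches of Mpc2 and Prpsap2, left out here, each held 0 GC boxes and 0 CCAAT boxes. Of the 10 genes, 8 had a window of 300 bases (250 before and 50 after a start) in the RefSeq promoter table of build GRCr8, 9 windows in all, and the lines give the part of the window upstream of the outermost annotated start. Capitals mark GC boxes (GGGCGG) and CCAAT boxes (CCAAT) on either strand, and each line runs from 5′ to 3′ of the strand named.
Alg6, GRCr8 chr5:119520265-119520414, strand +: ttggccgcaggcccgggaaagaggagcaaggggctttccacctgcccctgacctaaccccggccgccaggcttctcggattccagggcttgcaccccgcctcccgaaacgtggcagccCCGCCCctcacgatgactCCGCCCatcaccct
Rcn2, GRCr8 chr8:65344997-65345246, strand +: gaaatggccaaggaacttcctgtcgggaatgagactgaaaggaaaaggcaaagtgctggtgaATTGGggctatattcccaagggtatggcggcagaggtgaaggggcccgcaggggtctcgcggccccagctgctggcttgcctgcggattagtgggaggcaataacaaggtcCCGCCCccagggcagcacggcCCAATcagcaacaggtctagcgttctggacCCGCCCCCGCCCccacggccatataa
Sumo2, GRCr8 chr10:101283459-101283708, strand -: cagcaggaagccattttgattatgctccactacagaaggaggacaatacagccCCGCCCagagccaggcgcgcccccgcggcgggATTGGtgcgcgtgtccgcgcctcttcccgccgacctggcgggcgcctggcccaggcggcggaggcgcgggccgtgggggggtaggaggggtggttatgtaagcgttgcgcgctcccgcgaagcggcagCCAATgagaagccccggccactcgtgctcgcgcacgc
Faim, GRCr8 chr8:108423096-108423258, strand +: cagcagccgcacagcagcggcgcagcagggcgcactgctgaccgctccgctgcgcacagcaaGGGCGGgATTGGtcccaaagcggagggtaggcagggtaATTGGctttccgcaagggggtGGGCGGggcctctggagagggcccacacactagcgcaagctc

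GC boxes were the shared letters of these windows, though not of every stretch upstream of the outermost annotated start. For Mpc2 and Prpsap2 no GC box of the window lay within that stretch. All 9 windows, of 8 genes, held at least 1 GC box, which 58.6% of the 11202 windows of tested genes held too. A CCAAT box was found in the windows of 5 of 8 genes (Alg6, where it lies outside the stretch shown, Faim, Rcn2, Mpc2 and Sumo2), against 37.1% of the windows of tested genes. Faim, the gene of opposite direction, carried both kinds of box, as Rcn2 and Sumo2 did. The windows held 58.7% to 76% G and C with a median of 67.7%, against a median of 60% over tested genes. The ETS core (CCGGAAG) was found for Faim, Tmed7 and Mpc2 (16% of windows of tested genes), the NRF1 site for Alg6 (8.76%) and the YY1 core (AAGATGGC) for Svbp (4.82%). A full palindromic estrogen response element, a cAMP response element (TGACGTCA) and a TATA box (TATAAA) were found in 0 of the 9 windows (0.00893%, 2.98% and 7.72% of windows of tested genes). All motifs were searched on both strands, and a match describes letters only.

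Across the BPA groups the 9 genes other than Faim shared 1 profile: highest at 250 µg per kg, next at 25, and low at 2.5, 2500 and 25000, while Faim had the inverse profile. All 8 libraries of BPA 25 and BPA 250 lay above all 12 libraries of the other 3 BPA groups for these 9 genes, an arrangement seen in 1.72% of all tested genes. For Faim all 8 lay below, as for 1.09% of tested genes. The F test among the BPA groups called 31.7% of the 13312 tested genes and all 10 of these, and the F test that also included the vehicle called 34.3%; the genes were chosen by this variation, and nothing is read from either count. Against all 24 libraries outside BPA 25 and BPA 250, vehicle and EE2 included, 6 genes stayed apart on the upper side (Ubqln2, Rcn2, Prpsap2, Tmed7, Tmem65 and Sumo2; 0.496% of tested genes) and Faim on the lower side (0.323%).

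**Figure D1:**
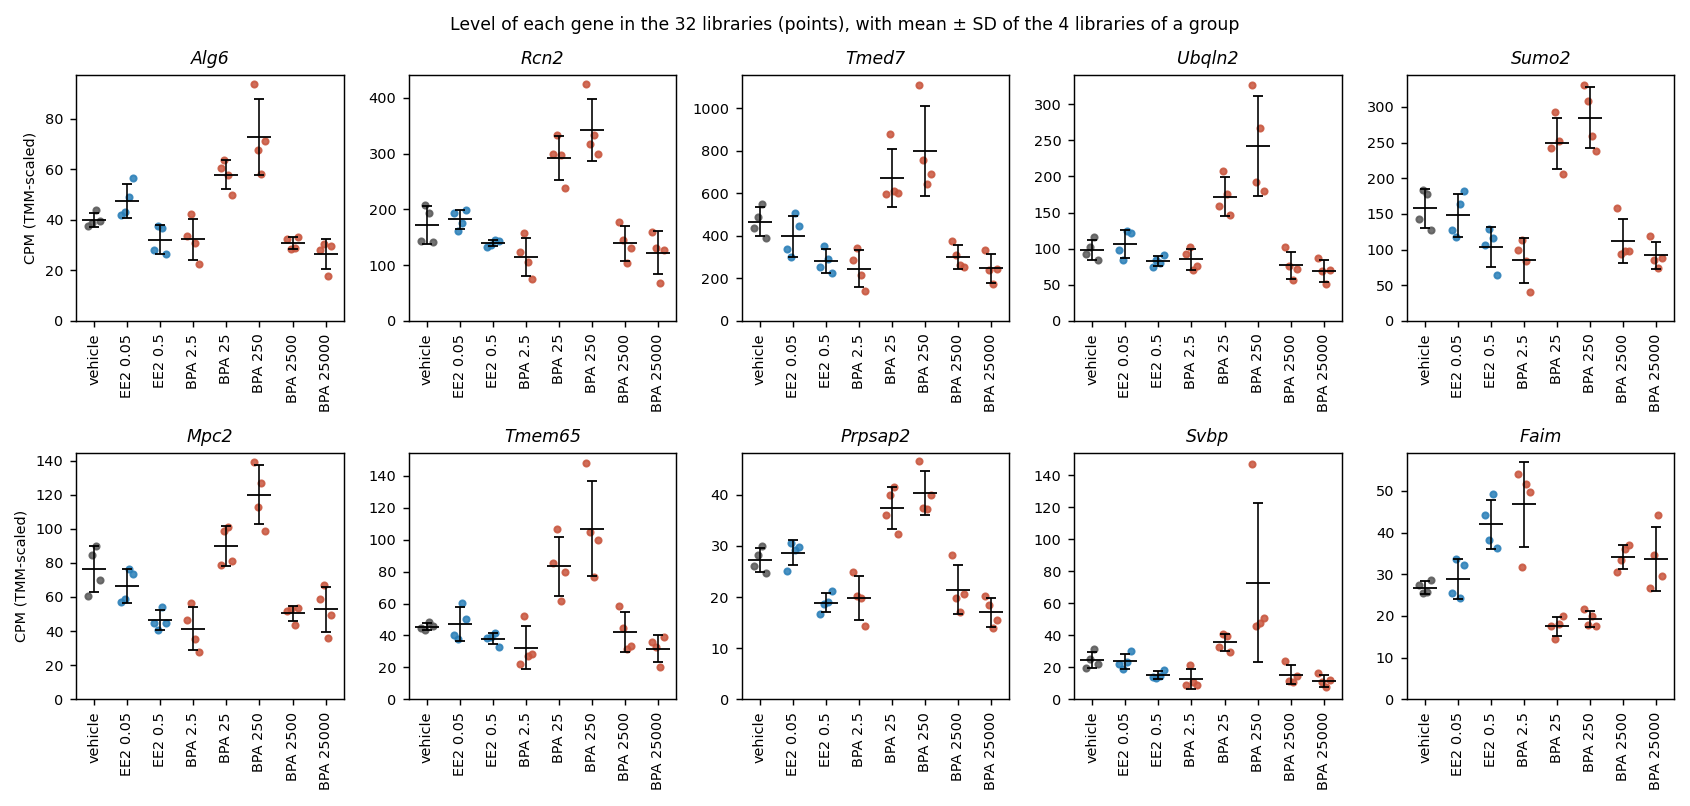
Level of each of the 10 genes in CPM (axis from 0) in every library (points) of the vehicle (grey), EE2 (blue) and BPA (red) groups, with doses in µg per kg per day, and the mean ± SD of 4 libraries (black). In 9 panels the BPA 25 and BPA 250 points lie above those of the other BPA groups, and in the Faim panel they lie below.

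Relative to the vehicle, the median log2 fold change of the 9 genes was 0.87 at BPA 250 (range 0.57 to 1.57) and 0.54 at BPA 25 (range 0.24 to 0.87). It was -0.57 at BPA 2.5, -0.38 at BPA 2500 and -0.59 at BPA 25000, so the vehicle lay between the high and the low BPA groups. Over all tested genes the median log2 fold change was 0.05, 0.00, -0.02, 0.01 and 0.02 from the lowest to the highest BPA dose. The mean of the 5 BPA groups differed from the vehicle by -0.23 (Tmed7 and Mpc2) to 0.20 (Ubqln2 and Tmem65) over the 10 genes. For this mean edgeR called 0 of the 10 genes and 1.34% of tested genes. An unadjusted p under 0.05 was seen for 0 of the 10 and 18.7% of tested genes. These values share the libraries used in the choice. With 3 scalings of the libraries (TMM, DESeq2's size factors or total counts alone) 9 of the 10 genes were above the vehicle mean at BPA 25 and at BPA 250, and 1, Faim, at BPA 2.5, 2500 and 25000. Scaling by total counts alone moved the median of all genes to 0.16 at BPA 2.5 and to -0.12 at BPA 250, where the median of the 9 genes was then -0.46 and 0.78.

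**Figure D2:**
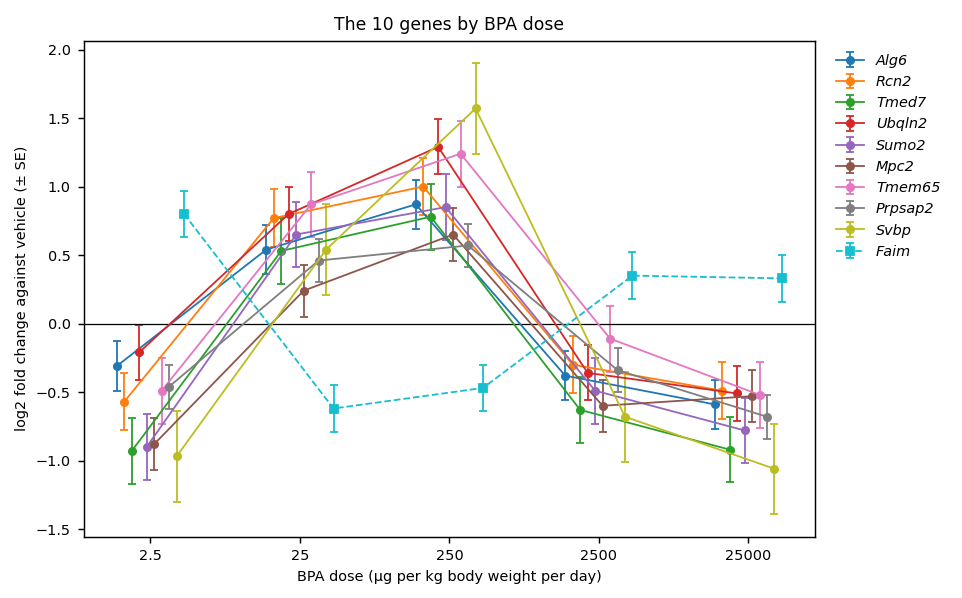
Log2 fold change of each gene against the vehicle (points, with the standard error of the fit as bars) at the 5 BPA doses in µg per kg per day, evenly spaced on the axis; points are shifted sideways to separate the genes. The 9 genes drawn as circles are positive at 25 and 250 and negative at 2.5, 2500 and 25000, and Faim (squares, dashed) has the opposite signs.

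Depth differed between some groups. Total counts were 11818451 to 16131148 in BPA 25 and 11802916 to 24661856 in BPA 250, against 13098736 to 14769896 in BPA 2.5, 16879384 to 20717318 in BPA 2500 and 16130546 to 23078311 in BPA 25000. BPA 25 thus lay wholly below BPA 2500, and BPA 2.5 wholly below both BPA 2500 and BPA 25000, while BPA 250 overlapped every BPA group. The 10 genes had at least 135 counts in every library. Uterine markers were present in all groups, with 10 of 10 myometrium, 8 of 8 endometrial stroma and 10 of 10 uterine epithelium genes of the table detected. Other tissue markers moved between groups. The summed level of 8 stroma genes was 26500 to 29700 CPM in BPA 250, 13200 to 29300 CPM in BPA 25 and 7920 to 21100 CPM in BPA 2.5, with 15000 to 39800 CPM in BPA 2500, 5420 to 25800 CPM in BPA 25000 and 9710 to 29200 CPM in the vehicle group, so the highest library belonged to BPA 2500. The 9 blood cell genes summed to 663 to 729 CPM in BPA 25 and 562 to 674 CPM in BPA 250, against 348 to 682 CPM in BPA 2.5, 448 to 720 CPM in BPA 2500 and 155 to 478 CPM in BPA 25000, and to 269 to 416 CPM in the vehicle group. The 6 ciliated cell genes summed to 2.31 to 17.6 CPM in BPA 250, 26.8 to 48.5 CPM in BPA 25, 4.46 to 482 CPM in BPA 2.5, 6.89 to 140 CPM in BPA 2500 and 8.94 to 22.3 CPM in BPA 25000, an order unlike that of the 10 genes. The 8 squamous epithelium genes were at 29.8 to 47.2 CPM in BPA 2.5, 9.93 to 23.7 CPM in BPA 25, 3.23 to 26 CPM in BPA 250, 8.78 to 24.6 CPM in BPA 2500 and 7.5 to 10.8 CPM in BPA 25000. The 4 tested ovary genes of 10 were at 2.72 to 3.73 CPM in BPA 25 and 2.34 to 5.43 CPM in BPA 250, against 5.16 to 10.7, 3.93 to 6.06 and 4.68 to 9.55 CPM in BPA 2.5, 2500 and 25000 and 4.39 to 7.99 CPM in the vehicle group; Fshr was at 0 in all libraries of BPA 25, 250, 2500 and 25000. None of the myometrium, stroma, epithelium, ciliated and blood lists had a gene at 0 in all libraries of a BPA group. As a measure related to RNA quality, 18 short transcripts of respiratory chain subunits summed to 1160 to 1730 CPM in BPA 25 and 1240 to 1740 CPM in BPA 250, against 413 to 889 CPM in BPA 2.5, 755 to 1480 CPM in BPA 2500, 809 to 1440 CPM in BPA 25000, 588 to 1000 CPM in EE2 0.5 and 1020 to 1820 CPM in the vehicle group. Their part in the profile of the 10 genes was not tested.

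Of the secretory pathway genes, Alg6 encodes the glucosyltransferase that adds the first glucose to the lipid-linked oligosaccharide from which N-glycans are made. Alg6 was at 60.3, 63.5, 57.6 and 49.9 CPM in BPA 25 libraries 1 to 4 and at 93.6, 67.6, 58.2 and 71.3 CPM in BPA 250. BPA 2.5 held 33.5, 42.3, 30.9 and 22.4 CPM, BPA 2500 held 32.2, 28.6, 29 and 33.2 CPM and BPA 25000 held 27.9, 30.4, 17.7 and 29.6 CPM. The lowest high-group library (49.9 CPM) was thus above the highest of the low groups (42.3 CPM). The vehicle libraries, at 37.5, 38.6, 43.8 and 39.6 CPM, lay within the upper part of the low groups' span and just above it. The mean at BPA 250 was 72.7 ± 15 CPM (SD, n = 4) against 39.9 ± 2.78 CPM in the vehicle group and 26.4 ± 5.88 CPM at BPA 25000. EE2 0.05 libraries 1 to 4 held 41.8, 43.1, 49.1 and 56.5 CPM, so the highest overlapped BPA 25. The gene for Itgb3bp overlaps Alg6 in the annotation and the use of strand in counting is not given, which leaves part of its count uncertain. Itgb3bp itself was at 8.76 CPM in BPA 25 and 8.99 CPM in BPA 250 against 8.66 CPM in the vehicle group. It was lower at BPA 2.5, 2500 and 25000, with 5.81, 5.96 and 5.14 CPM, an order like that of Alg6. It was not called among the BPA groups (edgeR adjusted p = 0.0842).

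Rcn2 encodes reticulocalbin 2, a calcium-binding protein of the ER lumen. It was at 299, 334, 298 and 239 CPM in BPA 25 and at 424, 317, 333 and 299 CPM in BPA 250. The vehicle libraries held 144, 208, 194 and 141 CPM. BPA 2.5 held 123, 157, 106 and 75.4 CPM, the lowest group mean (115 ± 34.1 CPM), and BPA 25000 held 159, 131, 67.8 and 128 CPM. The group mean at BPA 250, 343 ± 55.6 CPM, was 2.97 times that of BPA 2.5 and 2 times that of the vehicle. No library outside BPA 25 and BPA 250 exceeded 208 CPM, and none inside was under 239 CPM.

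Tmed7 encodes a p24 protein, a cargo receptor of the vesicles that shuttle between ER and Golgi. Its libraries were at 595, 879, 613 and 601 CPM in BPA 25 and at 1110, 756, 642 and 691 CPM in BPA 250. The vehicle group held 437, 489, 550 and 391 CPM and BPA 2.5 held 285, 342, 214 and 142 CPM. Between the vehicle and the low BPA groups there was thus a second gap: BPA 2.5, with at most 342 CPM, BPA 2500, with 253 to 374 CPM, and BPA 25000, with 172 to 334 CPM, all lay under the lowest vehicle library. The ratio of means was 3.26 for BPA 250 over BPA 2.5 (800 ± 212 and 246 ± 86.8 CPM) and 1.71 for BPA 250 over vehicle.

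Ubqln2 encodes ubiquilin 2, which carries ubiquitin-tagged proteins to the proteasome. It stood at 159, 208, 176 and 146 CPM in BPA 25 and at 327, 192, 267 and 180 CPM in BPA 250. In the vehicle group it was at 92.0, 102, 116 and 84.3 CPM, and in BPA 25000 at 87.7, 68.7, 50.5 and 70.9 CPM. The 2 high groups overlapped each other, and no library elsewhere exceeded 124 CPM, the top of EE2 0.05. At BPA 250 the mean of 242 ± 68.8 CPM was 2.45 times the vehicle mean (98.7 ± 13.8 CPM) and 3.48 times that of BPA 25000 (69.4 ± 15.2 CPM). The log2 fold change against the vehicle was 0.80 (SE 0.20) at BPA 25, 1.29 (SE 0.20) at BPA 250 and -0.21 (SE 0.20) at BPA 2.5, so BPA 2.5 was closer to the vehicle for Ubqln2 than for the other 8 genes of its direction.

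Sumo2 encodes a small ubiquitin-like modifier that is attached to many nuclear proteins. Libraries 1 to 4 held 243, 293, 253 and 206 CPM in BPA 25 and 331, 308, 260 and 238 CPM in BPA 250. The vehicle group held 143, 184, 178 and 128 CPM, and BPA 2.5 held 99.9, 114, 84.5 and 41.2 CPM. All BPA 2.5 libraries were below all vehicle libraries, and all BPA 25 libraries above them. The mean at BPA 250 (285 ± 42.5 CPM) was 3.35 times that of BPA 2.5 (84.8 ± 31.5 CPM) and 1.80 times that of the vehicle (158 ± 27.3 CPM). RefSeq lists close copies of this gene, the gene Sumo2l1 and the pseudogene Sumo4, with which its reads may be shared, so its level is uncertain to that extent.

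Mpc2 encodes a subunit of the mitochondrial pyruvate carrier, which brings the end product of glycolysis into the mitochondrion. It was at 78.8, 98.7, 101 and 81.2 CPM in BPA 25 and at 139, 113, 127 and 98.9 CPM in BPA 250. The vehicle libraries, at 60.5, 84.7, 90.1 and 70.0 CPM, overlapped BPA 25 and not BPA 250. BPA 2.5 was at 46.3, 56.4, 35.2 and 27.7 CPM and BPA 2500 at 51.5, 52.8, 43.7 and 53.6 CPM, both entirely under the vehicle. Mpc2 had the smallest log2 fold change against the vehicle of the 9 genes at BPA 25 (0.24, SE 0.19), and at BPA 2.5 it had -0.88 (SE 0.19). Adcy10 overlaps Mpc2 in the annotation and was at 1.94 to 3.68 CPM in group means.

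Tmem65 encodes a protein of the inner mitochondrial membrane. Its values were 85.7, 107, 61.7 and 79.8 CPM in BPA 25 and 148, 105, 76.6 and 100 CPM in BPA 250. The vehicle libraries were tight, at 44.7, 43.2, 48.6 and 45.8 CPM. BPA 2.5 held 22.3, 52.0, 27.2 and 28.3 CPM, so that library 2 lay above the vehicle and the other 3 below it. BPA 2500, at 58.5, 44.8, 31.8 and 33.6 CPM, straddled the vehicle (log2 fold change -0.11, SE 0.24), and BPA 25000, with 20 to 38.9 CPM, lay under it. The highest mean, 107 ± 29.6 CPM at BPA 250, was 3.38 times the lowest, 31.8 ± 8.31 CPM at BPA 25000.

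Prpsap2 encodes a regulatory subunit bound to phosphoribosyl pyrophosphate (PRPP) synthetase. It was at 36.1, 39.9, 41.6 and 32.4 CPM in BPA 25 and at 46.6, 37.5, 37.3 and 40 CPM in BPA 250. The vehicle libraries held 26, 28.2, 30 and 24.7 CPM, and BPA 25000 held 20.3, 18.4, 13.9 and 15.5 CPM. The vehicle group lay in a gap of its own between BPA 25, from 32.4 CPM up, and BPA 25000, up to 20.3 CPM, while BPA 2.5 and BPA 2500 reached up to 25 and 28.2 CPM. Its range of means was the narrowest of the 10 genes, 2.37 times from BPA 25000 (17 ± 2.87 CPM) to BPA 250 (40.4 ± 4.33 CPM).

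Svbp encodes a small protein that binds vasohibins and makes them active as tubulin carboxypeptidases. It was at 32.8, 40.9, 39.3 and 29.5 CPM in BPA 25 and at 147, 45.8, 47.6 and 50.6 CPM in BPA 250. Library 1 of BPA 250 stood 3.07 times above the mean of the other 3, and without it the BPA 250 mean was 48 in place of 72.8 CPM. Svbp was the 1 gene of the 10 whose BPA 250 libraries all lay above its BPA 25 libraries. The vehicle group held 19.5, 25.3, 31.2 and 22.1 CPM and BPA 25000 held 16.5, 10.9, 7.41 and 12 CPM. The ratio of BPA 250 to BPA 25000 was 6.21, the widest of the set, and 3.65 with the 4 libraries that stood apart left out.

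Faim, which encodes an inhibitor of Fas-induced apoptosis, lay on the opposite side. It was at 17.5, 14.4, 18.1 and 19.9 CPM in BPA 25 and at 21.6, 17.9, 20.1 and 17.5 CPM in BPA 250. The vehicle libraries were at 27.4, 25.5, 25.7 and 28.7 CPM. BPA 2.5 held 54.1, 31.7, 51.6 and 49.8 CPM, BPA 2500 held 30.5, 33.4, 36 and 37.1 CPM and BPA 25000 held 26.6, 34.6, 44.2 and 29.6 CPM. All 8 libraries of BPA 25 and 250 lay below all vehicle libraries, and all of BPA 2.5 and BPA 2500 above them. The highest mean, 46.8 ± 10.2 CPM at BPA 2.5, was 2.68 times the lowest, 17.5 ± 2.28 CPM at BPA 25. Cxadrl1 overlaps Faim in the annotation, and its group means ran from 47.6 to 67.4 CPM with no call among the BPA groups (edgeR adjusted p = 0.766).

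High and low libraries within a group were shared by the 9 genes too. BPA 250 library 1 held the highest value of its group for 9 of the 9 genes, and BPA 25000 library 3 the lowest of its group for 9 of 9. Both are among the 4 libraries that stood apart. Faim was the highest of its group in both, so in BPA 250 library 1 it did not run opposite to the 9 genes. BPA 2.5 library 2 was highest in its group for 8 of the 9, and BPA 25 library 2 and BPA 2500 library 1 for 7 each. Leaving out the 4 libraries that stood apart was an alternative added after the data were seen. It could not undo the separation of BPA 25 and BPA 250 from the other BPA groups, which was complete with all libraries. Nothing is read from that separation here. Without these 4 libraries the ratio of BPA 250 to BPA 2.5 ran from 2.03 (Alg6) to 3.47 (Sumo2) over the 9 genes. With all libraries it ran from 2.03 (Prpsap2) to 5.79 (Svbp). Over all 32 libraries the 36 pairs among the 9 genes had Pearson correlations of log2 CPM from 0.84 to 0.97, and Faim had -0.87 to -0.77 with them, values that include the group differences used for the choice.

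The EE2 group means did not enter the ordering that gives the genes, and the 2 EE2 doses compare groups outside it. The spread of each gene was fitted over all 32 libraries, for the ordering and for the EE2 tests alike. A small fitted spread favours both a high place and a low p-value, so these p-values are not independent of the choice. Between EE2 0.5 and EE2 0.05 the 9 genes had log2 fold changes of -0.65 (Svbp) to -0.32 (Tmem65), with a median of -0.51, and Faim had 0.54. Over all tested genes the median was 0.00. These signs are those of BPA 2.5, 2500 and 25000 against the vehicle. In edgeR 0 of the 10 genes passed (2 of 13312 genes did, 0.015%, both higher, and 0% lower), 6 of the 10 had an unadjusted p under 0.05, as had 1200 of all tested genes, DESeq2 passed 0 of the 10 as well, and limma voom with sample weights passed 2 (Faim and Prpsap2, adjusted p = 0.0216 and 0.0361). Of all tested genes 9.01% had an unadjusted p under 0.05 in edgeR, and DESeq2 called 0.105% and limma voom 0.526%. The genes were correlated with each other in these 8 libraries as well (36 pairs of the 9 genes, Pearson r from 0.49 to 0.92), so they do not amount to 10 separate observations. Beside them, 18 short transcripts of respiratory chain subunits summed to 962 to 1170 CPM in EE2 0.05 and 588 to 1000 CPM in EE2 0.5, and 9 blood cell genes to 362 to 720 and 573 to 707 CPM; their part in the difference was not tested.

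By gene, the EE2 0.05 libraries lay wholly above those of EE2 0.5 for Alg6, Svbp, Rcn2, Prpsap2 and Mpc2 (5 of 10; 4.17% of tested genes) and wholly below for Faim (4.88%). Prpsap2 was at 25.1, 30.5, 29.2 and 29.9 CPM in EE2 0.05 and at 16.6, 18.7, 19.1 and 21.2 CPM in EE2 0.5 (log2 fold change -0.60, SE 0.16, edgeR adjusted p = 0.338). Faim was at 25.5, 33.7, 24.3 and 32.3 CPM against 44.2, 38.3, 49.3 and 36.2 CPM (0.54, SE 0.17, edgeR adjusted p = 0.384). Both genes thus had separate ranges at the 2 doses without passing over all genes. Alg6 was at 28.1, 37.6, 36.7 and 26.3 CPM in EE2 0.5 (-0.57, SE 0.18, edgeR adjusted p = 0.395) and Mpc2 at 57.1, 58.7, 76.2 and 73.4 CPM in EE2 0.05 against 45, 40.7, 54.4 and 45 CPM (-0.52, SE 0.19, edgeR adjusted p = 0.451). Svbp was at 22, 19.1, 23.5 and 30.1 CPM against 14.1, 13.2, 14.4 and 18.5 CPM, and Rcn2 at 194, 161, 175 and 199 CPM against 133, 137, 146 and 144 CPM. The ranges overlapped for Ubqln2, with 84.3 to 124 CPM in EE2 0.05 and 74.3 to 91.6 CPM in EE2 0.5, for Tmed7, with 301 to 509 and 224 to 353 CPM, for Tmem65, with 37.8 to 60.4 and 33.0 to 41.5 CPM, and for Sumo2, with 118 to 182 and 64.9 to 129 CPM.

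Each EE2 dose was also set against the vehicle, whose libraries had entered the choice. At EE2 0.05 the genes lay close to the vehicle: log2 fold changes ran from -0.23 (Tmed7) to 0.26 (Alg6). In edgeR 0 of 10 passed (0.0451% of tested genes did, 0.0376% higher and 0.00751% lower). An unadjusted p under 0.05 was seen for 0 of 10, against 11.5% of tested genes. DESeq2 and limma voom passed 0 as well (0.488% and 10.3% of tested genes). At EE2 0.5 the 9 genes had log2 fold changes of -0.26 (Ubqln2 and Tmem65) to -0.73 (Tmed7), and Faim had 0.65. In edgeR 0 of 10 passed (0.556% of tested genes did, 0.263% higher and 0.293% lower), with 6 of 10 at an unadjusted p under 0.05, against 15.6% of tested genes. Nearest were Faim (SE 0.17, edgeR adjusted p = 0.0604) and Mpc2 (-0.72, SE 0.19, edgeR adjusted p = 0.0632). These 2 passed in DESeq2 (adjusted p = 0.0143 and 0.0205), where the others did not, and limma voom passed 5 (Svbp, Faim, Prpsap2, Tmed7 and Mpc2), while over all tested genes DESeq2 called 3.32% and limma voom 9.17%. Without control library 1 Mpc2 passed in edgeR (-0.82, adjusted p = 0.0359). The vehicle libraries lay wholly above EE2 0.5 for Svbp, Prpsap2, Tmed7, Mpc2 and Tmem65 (5 of 10; 6.02% of tested genes) and wholly below for Faim (6.8%). Marker lists separated these groups as well: blood cell genes summed to 573 to 707 CPM in EE2 0.5 and 269 to 416 CPM in the vehicle group, squamous epithelium genes to 37 to 255 and 8.91 to 25.4 CPM, and short respiratory chain transcripts to 588 to 1000 and 1020 to 1820 CPM. Their part in the differences was not tested.

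**Figure D3:**
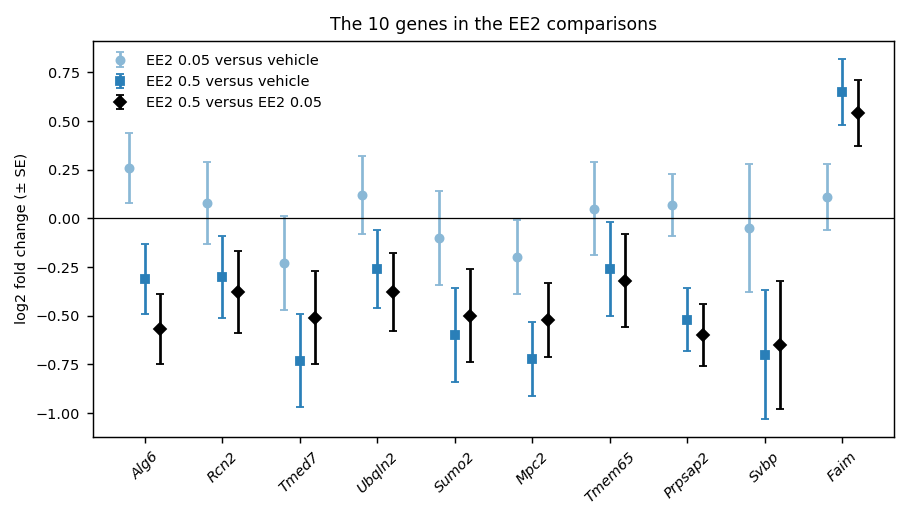
Log2 fold change of the 10 genes (points, with the standard error of the fit as bars) for EE2 0.05 against vehicle, EE2 0.5 against vehicle and EE2 0.5 against EE2 0.05. At EE2 0.05 the values lie between -0.23 and 0.26, and at EE2 0.5 9 genes are negative and Faim is positive in both comparisons.

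In the order of group means BPA 250 came first and BPA 25 second for all of the 9 genes, with overlapping ranges except for Svbp. Vehicle and EE2 0.05 came next for all 9, in either order, and overlapped each other. EE2 0.5, BPA 2.5, BPA 2500 and BPA 25000 had the lowest means, and neighbours in their order overlapped for each gene. Between BPA 25 and the next group down the ranges were separate for Ubqln2, Rcn2, Prpsap2, Tmed7, Tmem65 and Sumo2 and overlapped for Alg6, Svbp and Mpc2. For Faim the order ran BPA 2.5, EE2 0.5, BPA 2500, BPA 25000, EE2 0.05, vehicle, BPA 250 and BPA 25, with the 1 gap between neighbours lying between vehicle and BPA 250.

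Relatives and partners of the genes did not all follow them. Mpc1, the partner with which Mpc2 forms the pyruvate carrier, had group means of 91.2 CPM at BPA 25 and 98.7 CPM at BPA 250, 38.1 CPM at BPA 2.5 and 86.7 CPM in the vehicle group, and differed among the BPA groups (edgeR adjusted p = 0.00233). Sumo3, a relative of Sumo2, ran from 50.1 to 66.4 CPM over all groups (edgeR adjusted p = 0.227). Ubqln1 was at 103 to 117 CPM in the BPA groups (edgeR adjusted p = 0.657). Ubqln4 differed among them in the direction of Faim, with 68.2 CPM at BPA 25 and 109 CPM at BPA 2.5 (edgeR adjusted p = 0.00924).

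Tmed2 and Tmed10, the p24 partners of Tmed7 in vesicle formation, differed among the BPA groups, each highest at BPA 250. They ran from 351 to 556 CPM (edgeR adjusted p = 0.0257) and from 167 to 239 CPM (edgeR adjusted p = 0.0319). Unlike Tmed7, Tmed10 was not high at BPA 25, with 204 CPM there against 227 CPM at BPA 2500 and 205 CPM at BPA 25000. Prpsap1, the other regulatory subunit of PRPP synthetase, was lowest where Prpsap2 was highest, with 50.6 and 48.4 CPM at BPA 25 and 250 against 67.8 CPM at BPA 2.5 (edgeR adjusted p = 0.0148). The catalytic subunit gene Prps1 was at 38 to 47.8 CPM in the BPA groups (edgeR adjusted p = 0.528). The other catalytic subunit gene, Prps2, named here after its values were seen, was at 71.7 and 57.6 CPM at BPA 25 and 250 against 39.1, 36.5 and 40.4 CPM at BPA 2.5, 2500 and 25000 (edgeR adjusted p = 0.019). Rcn1 and Rcn3 were not called (edgeR adjusted p = 0.114 and 0.11), nor was Alg8, the next glucosyltransferase after Alg6 (15.8 to 21.2 CPM over all groups; edgeR adjusted p = 0.613). Faim2, at 0.978 to 2.66 CPM in group means, was not called (edgeR adjusted p = 0.355), and Vash1 was not among the genes tested.

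**Figure D4:**
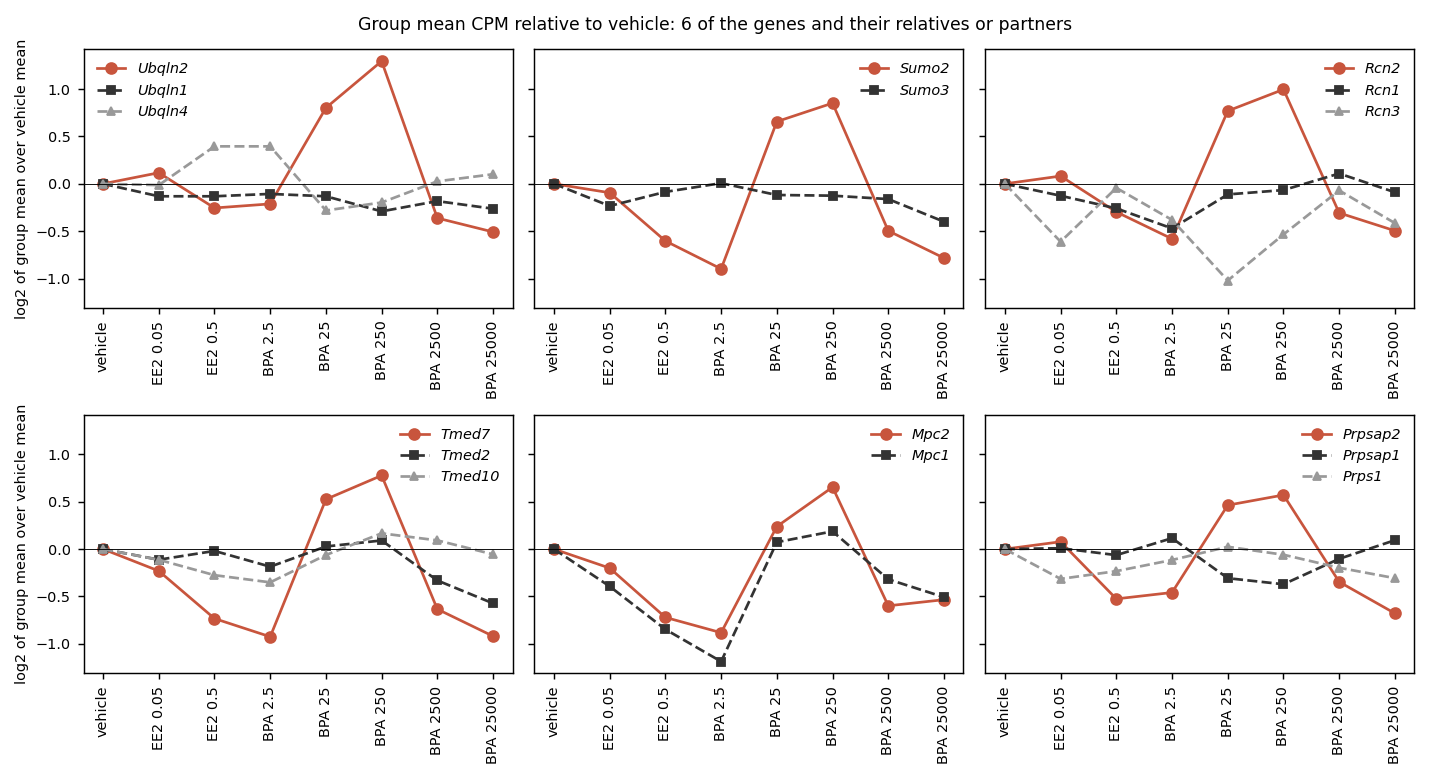
Group mean CPM relative to the vehicle mean, on a log2 axis, for Ubqln2, Sumo2, Rcn2, Tmed7, Mpc2 and Prpsap2 (red) and the relatives or partners named in each panel (dark and light grey). Mpc1 runs parallel to Mpc2, while Prpsap1 and Ubqln4 lie below the vehicle at BPA 25 and BPA 250, where Prpsap2 and Ubqln2 lie above it.

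The wider pathways were read from 10 lists of 213 genes that do not contain the 10 genes, 198 of them tested. Of these, 74 differed among the BPA groups in edgeR (37.4%, against 31.7% of all tested genes). By the mean of BPA 25 and BPA 250 against that of the other BPA groups, 46 of the 74 were on the upper side and 28 on the lower, and of the 4215 such genes among all tested genes 1941 and 2274. In pyruvate uptake and use 10 of 19 tested genes differed, 8 on the upper side and 2 on the lower. Dlat and Dld, subunits of pyruvate dehydrogenase, had the profile of Mpc2, with 100 and 348 CPM at BPA 250 against 48.2 and 176 CPM at BPA 2.5 (edgeR adjusted p = 2.11e-05 and 4.22e-05). The lactate and pyruvate transporter gene Slc16a1 was at 78.6 against 33.3 CPM (edgeR adjusted p = 0.00123). The list's median log2 fold change against the vehicle was 0.18 at BPA 250 and -0.26 at BPA 2.5.

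Of the p24 and coat list, 12 of 28 tested genes differed among the BPA groups, 11 on the upper side and 1 on the lower, with a list median log2 fold change of 0.01 at BPA 250 against the vehicle. Tmed5, another p24 protein, was at 96.1 CPM in BPA 250 and 40.1 CPM in BPA 25000 (edgeR adjusted p = 0.000182), and the COPII gene Sec24b (edgeR adjusted p = 0.000484) and the COPI gene Copb1 (edgeR adjusted p = 0.00115) differed too. In N-glycan precursor synthesis and transfer 12 of 32 differed, 9 on the upper side and 3 on the lower, with a list median of -0.04. Magt1, a subunit of the oligosaccharide transferase, was at 135 CPM in BPA 250 and 59.3 CPM in BPA 25000 (edgeR adjusted p = 0.000837), and the mannosyltransferase gene Alg11 at 92.1 and 38.4 CPM (edgeR adjusted p = 0.00146). Nus1, of dolichol synthesis, was at 167 and 100 CPM (edgeR adjusted p = 0.00105). Unlike Alg6 it was not low at BPA 2.5, with 156 CPM there and 159 CPM at BPA 25. The 3 on the lower side, named after their values were seen, were Dolk (9.47 and 11.5 CPM at BPA 25 and 250 against 17.8 CPM at BPA 2.5), Alg1 (13 and 14.7 against 23.2 CPM) and Dolpp1 (5.58 and 6.63 against 10.6 CPM), with edgeR adjusted p = 0.00208, 0.00548 and 0.0105. Among calcium-binding proteins and chaperones of the ER 5 of 16 differed, 3 on the upper side and 2 on the lower. Canx, the lectin chaperone calnexin, stood at 1070 CPM in BPA 250 against 508 CPM in BPA 2.5 (edgeR adjusted p = 7.21e-05), while Sdf4, a relative of Rcn2 in the Golgi, was lowest at BPA 250 with 94.7 CPM against 163 CPM at BPA 2500 (edgeR adjusted p = 0.00011).

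In the ubiquitin list 9 of 21 differed, 8 of them on the lower side, opposite to Ubqln2. Bag6, a chaperone of tail-anchored proteins, was at 63.3 CPM in BPA 250 and 91.7 CPM in BPA 2.5 (edgeR adjusted p = 0.000371), the proteasome's ubiquitin receptor gene Adrm1 at 21.4 and 40.3 CPM (edgeR adjusted p = 0.000657) and the polyubiquitin gene Ubb at 619 and 1050 CPM (edgeR adjusted p = 0.000948). In the SUMO list 8 of 19 differed, 5 on the upper side and 3 on the lower, among them the ligase-like Zmiz2 (edgeR adjusted p = 0.000106) and the proteases Senp7 (edgeR adjusted p = 0.00399) and Senp3 (edgeR adjusted p = 0.00409). Senp7 was higher at BPA 250 than at BPA 2.5 (73.9 against 41.6 CPM), and Zmiz2 and Senp3 were lower there (31.9 against 55.5 and 81.5 against 119 CPM).

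Mitochondrial calcium handling had 5 of 13 genes that differed, 2 on the upper side and 3 on the lower, with Slc25a24 and Micu3 higher at BPA 250 than at BPA 2.5 (249 against 120 and 36.6 against 23.7 CPM) and Letm1 lower (19.8 against 33.3 CPM; edgeR adjusted p = 0.000816, 0.00204 and 0.000775). The list of purine and PRPP synthesis, which also held the pyrimidine synthesis genes Cad, Dhodh and Umps, had 9 of 18, 4 on the upper side and 5 on the lower. Dhodh and Umps were among those on the lower side. Pfas ran from 39.9 CPM at BPA 250 to 67.5 CPM at BPA 2.5, Umps from 14.4 CPM at BPA 25 to 25.3 CPM at BPA 25000, and Aprt from 28 CPM at BPA 250 to 49.4 CPM at BPA 2500 (edgeR adjusted p = 0.00236, 0.00291 and 0.00623). On the upper side, and named after their values were seen, were the salvage enzyme gene Hprt1 (259 and 263 CPM at BPA 25 and 250 against 147 CPM at BPA 2.5) and Ppat, of the first step of purine synthesis (84.3 and 79.5 against 56.1 CPM; edgeR adjusted p = 0.00731 and 0.0107). Death receptor signalling had 3 of 18, among them the receptor gene Fas and the apoptosis inhibitor gene Xiap, both with a higher mean at BPA 250 (13.6 and 80.9 CPM) than at BPA 2.5 (6.82 and 49.4 CPM; edgeR adjusted p = 0.00538 and 0.00833). The tubulin list had 1 of 14, the carboxypeptidase gene Agbl5, at 35.3 ± 26.1 CPM (SD, n = 4) in BPA 2.5, where the libraries were far apart, and 12.1 ± 4.28 CPM in BPA 250 (edgeR adjusted p = 0.0114). For the EE2 comparisons 0 of the 198 genes passed in edgeR. An unadjusted edgeR p under 0.05 was seen for 28 in EE2 0.05 against vehicle, 45 in EE2 0.5 against vehicle and 18 between the EE2 doses. Over all tested genes the shares with such a p were 11.5%, 15.6% and 9.01%. DESeq2 passed 1, 4 and 0 of the 198 genes and limma voom 19, 30 and 0. Over all tested genes DESeq2 called 0.488%, 3.32% and 0.105% and limma voom 10.3%, 9.17% and 0.526%. For the mean of the 5 BPA groups against vehicle Copz1 and Dhodh were lower (-0.43 and -0.83 on the log2 scale, edgeR adjusted p = 0.0393 and 0.0383), as were 0.759% of tested genes. Of the 198 genes 0 were called higher (0.578% of tested genes). In all, 47 of the 198 had an unadjusted edgeR p under 0.05, against 18.7% of all tested genes. DESeq2 passed 4 higher and 7 lower and limma voom 5 and 40, with 5.83% and 19% of all tested genes called by these tools. The lists' median log2 fold changes at BPA 250 against vehicle ran from -0.42 (tubulin) to 0.18 (pyruvate), against 0.87 for the 9 genes.

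The genes most like each of the 10 over the 32 libraries, by Pearson correlation of log2 CPM, were described as well. Tmed7 and Sumo2 were both nearest to Api5, an inhibitor of apoptosis, and Mob4 (r = 0.98 and 0.98 for Tmed7, 0.97 and 0.97 for Sumo2). Tmem65 was nearest to Abi1 and Rab11a (0.97 and 0.95), Rcn2 to Mettl9 and Zfp706 (0.96 and 0.95), and Ubqln2 to Zfp706 and Rnf111 (0.95 and 0.94). Alg6 was nearest to Abhd17b and Ppp4r2 (0.95 and 0.95), Svbp to Uxs1 and Sec63 (0.93 and 0.93), Mpc2 to Mrpl50 and Mob4 (0.93 and 0.93), and Prpsap2 to Zfp706 and Slc18a2 (0.92 and 0.92). Faim was nearest to Usp19 and Nelfe (0.94 and 0.93). The profile was widely shared: from 174 (Faim) to 584 (Tmed7) tested genes correlated with 1 of the 10 at r above 0.8. All libraries share the dose groups that chose the genes, so these correlations are a description.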

How the data were processed

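RNA of rat uterus was sequenced in 32 libraries of 8 labelled groups. The authors deposited 1 table of raw counts of reads per gene, named by gene ID and not normalised. Per the submitters' processing notes bcl2fastq, TopHat, edgeR and build rn5 were used; no version, annotation or strand setting is stated in the sources at hand. Of 17327 genes 17167 matched a symbol in RefSeq GRCr8, used for names and promoter sequences. Total counts ran from 11777809 to 24661856, where 3 counts are 0.255 to 0.122 CPM, and no 2 libraries of a group were identical or agreed within sampling noise (lowest chi-square per degree of freedom 13).

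Counts were filtered with filterByExpr (minimum count 10, minimum total 15), scaled by TMM and fitted over all 8 groups with the quasi-likelihood test of edgeR 4.0.16 in R 4.3.3. P-values were adjusted by Benjamini-Hochberg over 13312 genes with a threshold of 0.05. Standard errors are the log2 fold change divided by the square root of F, and log2 CPM used a prior count of 2. Alternatives used DESeq2 1.42.0, limma 3.58.1 voom, other scalings and filters, only the groups compared, and fits without each library. The scripts were tested on simulated data.

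The members and lists were chosen with earlier results of these data known. Since the ordering that gives the 10 genes includes the vehicle group, the mean of the BPA groups against vehicle was treated as a description. Named beside them were the 2 genes most correlated with each, fixed relatives and partners, and up to 3 called genes per list with the smallest p; some of these are not reported here. Lists for fat cells and long transcripts were also measured, with summed levels by group of 545 to 1660 CPM (BPA 25), 414 to 1080 (BPA 250), 456 to 920 (BPA 2.5), 346 to 729 (BPA 2500), 707 to 818 (BPA 25000) and 211 to 748 (vehicle) for fat cells, and 6070 to 11200 CPM over all libraries for long transcripts, whose ranges overlapped between all BPA groups.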

Additional observations from a re-analysis of the deposited data

Results flagged for a closer look

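In 3 of the 80 sets of 4 libraries (10 genes in 8 groups) 1 library lay far from the other 3 by Dixon's test at 95%; chance alone gives about 1 in 20 sets. Svbp was at 147 CPM in BPA 250 library 1 and at 45.8 to 50.6 CPM in the other 3, and this library was 1 of the 4 least correlated with the rest. Tmed7 was at 879 CPM in BPA 25 library 2 against 595 to 613 CPM, and Sumo2 at 159 CPM in BPA 2500 library 1 against 93.4 to 98.7 CPM.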

How the results depend on the processing

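In all settings tried, the 10 genes stayed called among the BPA groups. They were chosen for that difference, so nothing is read from it, and 31.7% of all tested genes were called in the main fit. The 10 genes stayed uncalled for the BPA mean and EE2 0.05 against vehicle. Of the recomputed group means 400 of 400 moved by less than 1 SD. Most of these left out 1 of 4 libraries, which cannot move a mean that far, and the rest used DESeq2's size factors. Of 480 recomputed EE2 fold changes of the 10 genes, 460 kept direction and side of the threshold, 15 passed it and 5 changed sign, all at EE2 0.05 against vehicle. These were Tmem65, with -0.04 by limma voom and -0.07 to 0.14 with 1 library left out, and Svbp, with 0.02 scaled by total counts and -0.19 to 0.09 with 1 library left out (lowest and highest). For EE2 0.5 against vehicle, 1 of the 10 was called with a filter of 1 CPM in 16 libraries, 2 by DESeq2, 5 by limma voom, 2 with only the groups compared, 2 without the 4 libraries that stood apart and 0 to 1 with 1 library left out. Between the EE2 doses limma voom called 2. Counts over all genes moved far more, and the cause was not tested. For EE2 0.05 against vehicle (6 genes) they were 3 with the stricter filter, 65 by DESeq2, 1375 by limma voom, 130 with only the groups compared, 21 without the 4 libraries and 0 (without control library 2) to 7 with 1 library left out. For EE2 0.5 against vehicle (74) they were 42 with no filter, 442, 1221, 301, 168 and 0 (without control library 2) to 206 (without control library 1) in that order of settings. Between the EE2 doses (2) they were 1 with DESeq2's size factors, 14 by DESeq2, 70 by limma voom, 0 with only the groups compared, 1 with total counts, 5 without the 4 libraries and 0 to 6 with 1 left out. For the BPA mean (178) they were 116 with no filter, 776 by DESeq2, 2532 by limma voom, 12 with only the groups compared, 86 with total counts, 629 without the 4 libraries and 1 (without control library 3) to 537 (without BPA 2.5 library 4). Among the BPA groups (4215) they were 5024 by DESeq2, 6220 by limma voom, 2564 with only those groups, 2803 without the 4 libraries and 3349 to 4902 with 1 left out. Total-count scaling and leaving out the 4 libraries were chosen after seeing the data. No paired analysis was possible because the labels carry no replicate numbers. Each of the 10 genes had at least 135 counts in every library, so detection did not limit them.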
